A study of Mus musculus with 9 samples.

Results

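The comparison described here sets mouse embryonic stem cells with a hairpin against Phf5a directly against the same cells with a hairpin against Paf1, to ask what separates loss of the 2 factors. Its members are the 3 shPhf5a arrays and the 3 shPaf1 arrays, 6 of the 9 arrays of the series, chosen by their titles. The other 3 arrays carry a control hairpin (shControl); they stand outside the contrast and are given as the background level. The cells were the NG4 line, of 129/Sv origin, in which a fluorescent reporter reads out Nanog. They grew on gelatin in medium containing LIF, the cytokine that sustains undifferentiated stem cells. In every group, controls included, the hairpin came from a pLKO.1-type lentivirus, and transduced cells were kept for 72 h in puromycin at 2 µg/mL. The labels name no further hairpin for either target, so an off-target effect of a hairpin cannot be told apart from the loss of its target. Nothing in the labels says that replicates were separate cultures, so p-values measure the spread between these arrays, which may be technical. Values are deposited log2 expression values from whole-transcript Affymetrix arrays, made from 125 ng of total RNA. One probe set stood for each of 22180 genes.

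Phf5a is a small subunit of SF3b, the part of the U2 small nuclear ribonucleoprotein that holds the branch point of an intron during the early steps of splicing. Paf1 gives its name to the Paf1 complex, which rides with RNA polymerase II through gene bodies and is needed for ubiquitination of histone H2B and methylation of histone H3. Its other subunits are Ctr9, Leo1, Cdc73, Rtf1 and Wdr61. The Paf1 complex is known for a part in stem cell self-renewal, and the title of the series ties Phf5a to elongation by the polymerase.

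Each target was lower under its own hairpin than under the other. Phf5a read 10.40, 11.10 and 10.60 in shPhf5a replicates 1, 2 and 3, and 11.30, 11.25 and 11.55 in shPaf1, against 11.84 to 12.09 in the controls. All shPhf5a arrays lay below all shPaf1 arrays, but shPhf5a replicate 2 came close to the lowest of them. The difference, given throughout as shPhf5a minus shPaf1 on the log2 scale, was -0.67 (SE 0.16, limma adjusted p = 0.0111). Paf1 read 9.70, 10.02 and 9.79 in shPhf5a and 8.68, 8.72 and 8.69 in shPaf1, against 10.05 to 10.11 in the controls, and the groups were well apart. Its difference was 1.14 (SE 0.08, adjusted p = 7.89e-06). Against the controls, each target was also called lower under the other hairpin by limma. Phf5a differed from control by -0.57 in shPaf1 (adjusted p = 0.0183) and Paf1 by -0.25 in shPhf5a (adjusted p = 0.0267). Of the other Paf1 complex subunits, Rtf1 was higher in shPaf1 (-0.92, SE 0.06, adjusted p = 6.92e-06), and so was Cdc73 (-0.33, SE 0.05, adjusted p = 0.000665). Ctr9 (0.40, SE 0.08, adjusted p = 0.00593) and Wdr61 (0.29, SE 0.04, adjusted p = 0.000665) were higher in shPhf5a. Leo1 did not pass (0.04, adjusted p = 0.7).

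Of 22180 genes, 6430 were called at an adjusted p below 0.05 (29.0%), 2806 higher in shPhf5a (12.7%) and 3624 higher in shPaf1 (16.3%). Most calls were small. At least 2-fold differences were called in 159 genes higher in shPhf5a (0.717%) and in 199 higher in shPaf1 (0.897%). The 3 arrays of one knockdown all lay above those of the other in 8354 genes (37.7%). The shPhf5a arrays were the more scattered group, with a median SD over genes of 0.0918 against 0.0627 in shPaf1, and shPhf5a replicate 2 stood apart: its Phf5a level was 55.9% of the control mean, against 34.4% and 39.6% in the other two. Over all genes it also lay nearer to the control mean, at a root mean square distance of 0.32 against 0.46 and 0.44 in replicates 1 and 3. Without that array 3029 genes were higher in shPhf5a and 4255 in shPaf1. Embryonic stem cell markers stayed well above the array background in all groups: their mean over 8 genes was 10.17 to 10.44 in shPhf5a and 10.19 to 10.21 in shPaf1, against 10.65 to 10.71 in the controls. In these bulk samples fewer cells of a type and less RNA per cell cannot be told apart.

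**Figure D1:**
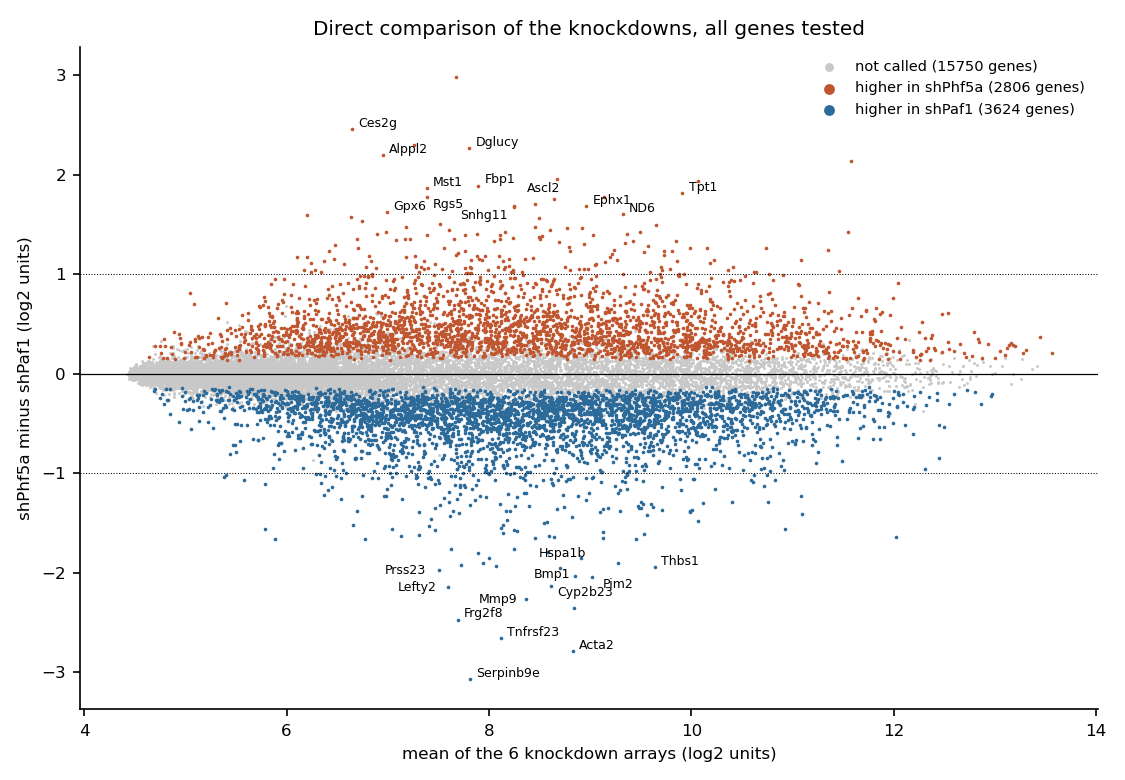
Difference between the knockdowns (vertical, shPhf5a minus shPaf1, log2 units) against the mean of the 6 knockdown arrays (horizontal, log2 units) for 22180 genes, 1 point each. Dotted lines mark 2-fold; called genes are coloured by the knockdown in which they were higher, and the named genes run from Ces2g (2.46) to Serpinb9e (-3.07).

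The genes that were furthest apart with shPaf1 higher were led by Serpinb9e and Acta2. Serpinb9e, a serine protease inhibitor of a clustered family, read 6.65, 5.84 and 6.33 in shPhf5a and 9.39, 9.38 and 9.26 in shPaf1, against 4.95 to 5.83 in the controls. It was 8.37-fold higher in shPaf1 (-3.07, SE 0.24, adjusted p = 2.08e-05), with the arrays of the groups far apart. Acta2, which encodes smooth muscle actin, read 7.43, 7.58 and 7.30 in shPhf5a and 10.23, 10.25 and 10.19 in shPaf1, against 8.22 to 8.28 in the controls. The control arrays lay between the knockdowns, and the difference was 6.91-fold (-2.79, SE 0.07, adjusted p = 1.1e-07). Tnfrsf23, a decoy receptor for the death ligand TRAIL, was 6.30-fold higher in shPaf1 (-2.66, SE 0.18). Mmp9, a gelatinase, was 4.80-fold higher (-2.26, SE 0.12), and Bmp1, the protease that trims procollagen, 4.08-fold (-2.03, SE 0.09). Lefty2, Pim2, Prss23, Hspa1b, Cyp2b23, Frg2f8 and Thbs1 completed the 12 genes chosen by size, with differences from -1.94 for Thbs1 to -2.47 for Frg2f8. All 12 passed the limma test at an adjusted p of 4.77e-05 (Cyp2b23) or lower.

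The 12 genes furthest apart in the other direction were led by Ces2g and Dglucy. Ces2g, a carboxylesterase, read 8.25, 7.31 and 8.08 in shPhf5a and 5.40, 5.47 and 5.38 in shPaf1, and 5.13 to 5.41 in the controls. The shPaf1 arrays overlapped the controls, and the shPhf5a arrays were 5.51-fold higher (2.46, SE 0.20, adjusted p = 2.46e-05). Dglucy, a mitochondrial D-glutamate cyclase, was 4.82-fold higher in shPhf5a (2.27, SE 0.09, adjusted p = 8.02e-07). Alppl2, a placental type of alkaline phosphatase, was 4.58-fold higher (2.20, SE 0.15), and Fbp1, the fructose bisphosphatase of gluconeogenesis, 3.71-fold (1.89, SE 0.08). The epoxide hydrolase Ephx1 differed by 1.68 and the glutathione peroxidase Gpx6 by 1.62. Tpt1, a translationally controlled and very abundant transcript, reached a similar difference by another route. It read 10.87, 10.65 and 10.94 in shPhf5a, at the control level of 10.78 to 10.88, and 9.24, 9.06 and 8.71 in shPaf1 (1.82, SE 0.12, adjusted p = 9.1e-06). Rgs5, Mst1, Ascl2, Snhg11 and the mitochondrial gene ND6 completed these 12. AU040972, a locus without a gene name and so outside the naming rule, had the highest difference of all genes (2.98, adjusted p = 5.81e-06).

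**Figure D2:**
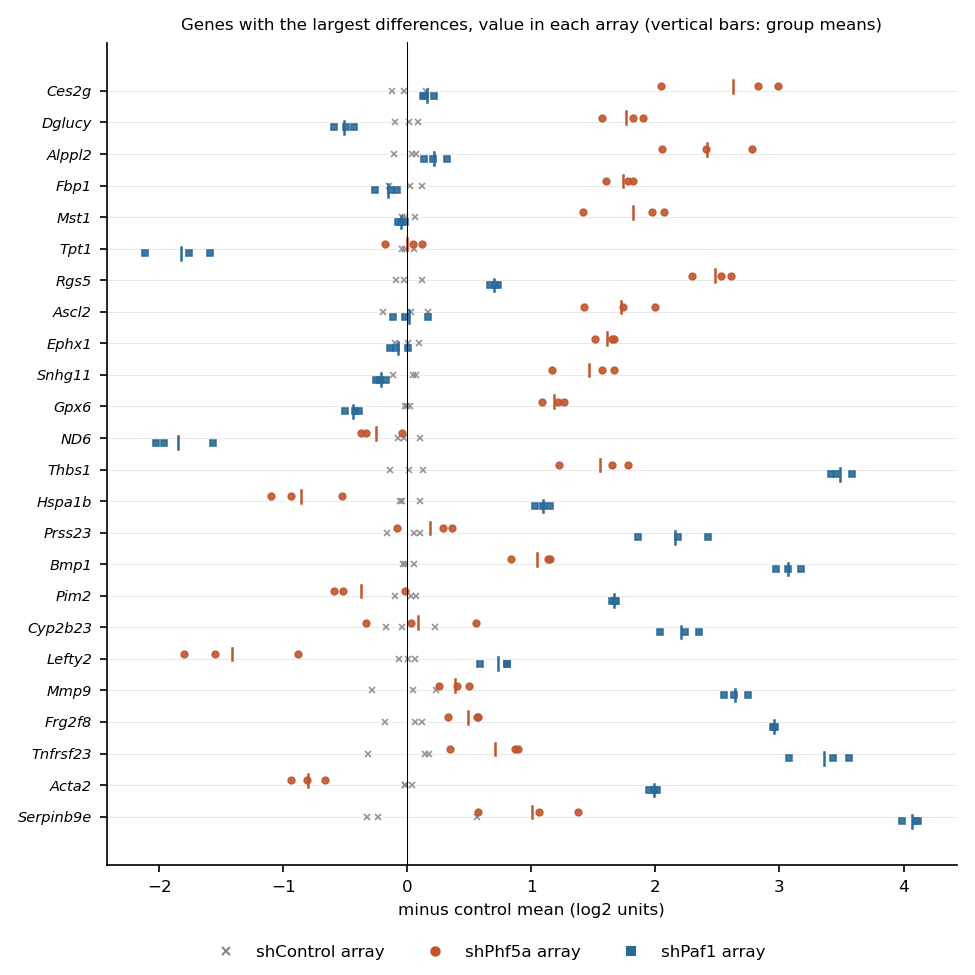
Value in each array minus the control mean (log2 units) for the 24 genes with the largest called differences under the naming rule. Circles are shPhf5a arrays, squares shPaf1 arrays and crosses control arrays; the knockdowns do not overlap in any of these genes, and Acta2, Lefty2, Pim2, Hspa1b, Dglucy and Gpx6 are among those with the control mean between the knockdown means.

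Against the control arrays, which both knockdowns share, several of these genes were called in opposite directions. Acta2 fell by 0.80 in shPhf5a (adjusted p = 2.23e-05) and rose by 1.99 in shPaf1 (1.51e-07). Lefty2, a secreted inhibitor of Nodal, read 6.13, 7.05 and 6.39 in shPhf5a and 8.73, 8.74 and 8.52 in shPaf1, against a control mean of 7.93. Its changes from control were -1.41 (adjusted p = 0.00029) and 0.73 (0.0124). Pim2, a serine/threonine kinase, fell by 0.38 (0.0426) and rose by 1.67 (9.02e-06). Hspa1b, an inducible heat shock protein, fell by 0.85 (0.000448) and rose by 1.09 (9.14e-05). The phosphatase Ppm1j fell by 1.46 (6.91e-05) and rose by 0.47 (0.0337). Dglucy went the other way, rising by 1.76 in shPhf5a (2.43e-06) and falling in shPaf1 (-0.51, adjusted p = 0.00131).

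To see which kinds of genes separated the knockdowns, 50 lists were counted against the background of 12.7% higher in shPhf5a and 16.3% higher in shPaf1. Among the lists above the background on the shPaf1 side were primed epiblast genes (24 of 26 members), lysosomal genes (15 of 22), the serpin B9 cluster (7 of 11), cholesterol synthesis (12 of 19), genes of the actin cytoskeleton (18 of 30), FGF and ERK feedback genes (10 of 17), matrix proteases (10 of 17) and genes of the 2-cell stage (17 of 30). On the shPhf5a side they included mitochondrially encoded genes (10 of 10), p53 targets (20 of 31), BMP and Id genes (10 of 16), noncoding hosts of small nucleolar RNAs (9 of 15), paraspeckle genes (6 of 10), small nucleolar RNAs (41 of 78) and cytoplasmic ribosomal proteins (30 of 67). Polycomb genes were even, with 4 of 18 members called each way. The proteasome list had 7 of 38 called each way and the ATF4 list 6 and 5 of 28, but without shPhf5a replicate 2 their members higher in shPaf1 numbered 11 and 10, and without shPhf5a replicate 3 they numbered 4 and 2. Of 70 mitochondrial ribosomal proteins 12 were higher in shPhf5a and 9 in shPaf1, and 25 in shPaf1 without shPhf5a replicate 2.

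**Figure D3:**
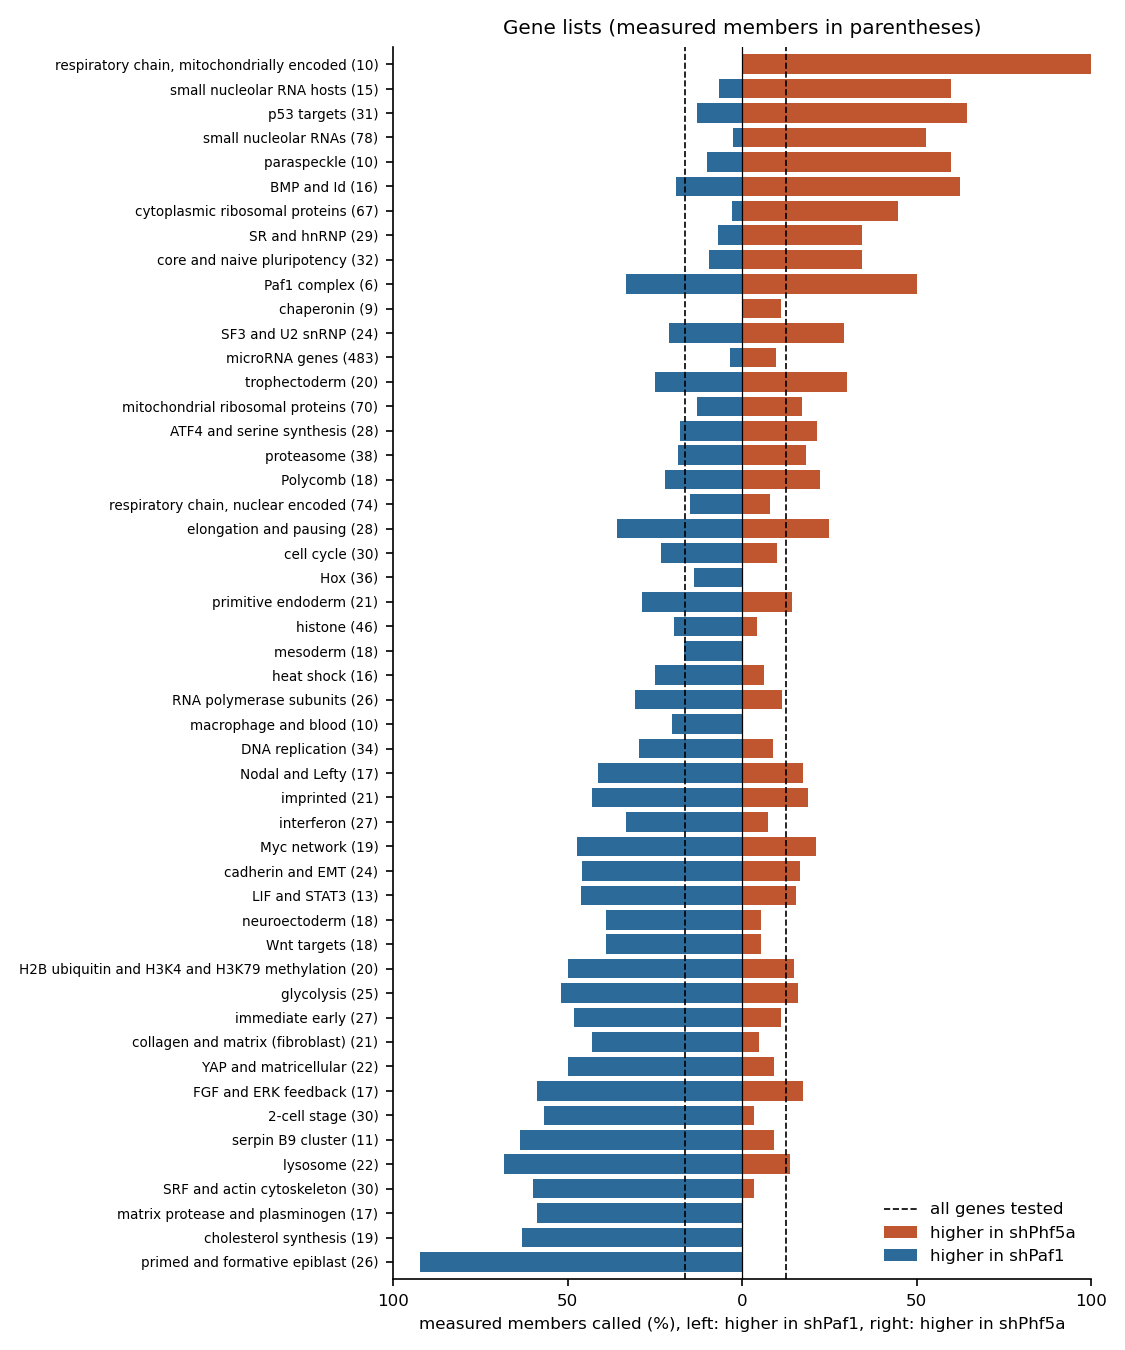
Share of the measured members of each of 50 gene lists that were called higher in shPaf1 (left, %) or in shPhf5a (right, %), with the number of measured members in parentheses. Dashed lines mark the shares of all genes tested, 16.3% and 12.7%; the bars run from primed epiblast genes (92.3% to the left) to mitochondrially encoded genes (100% to the right).

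Primed epiblast genes, which mark cells that have left the naive state, were higher in shPaf1. Of 26 measured members 24 were called higher there and 0 in shPhf5a, with a median difference of -0.84 against -0.02 over all genes. Dnmt3b, a de novo DNA methyltransferase, read 9.20, 9.89 and 9.33 in shPhf5a and 10.72, 10.68 and 10.90 in shPaf1, against 10.24 to 10.36 in the controls. The groups stood on either side of the control, with a difference of -1.30 (SE 0.15, adjusted p = 0.000185). Lef1, a DNA-binding partner of beta-catenin, was 3.13-fold higher in shPaf1 (-1.64, SE 0.13, adjusted p = 2.02e-05). Pou3f1 (-0.92), Otx2 (-0.75) and Fgf5 (-0.41), factors and a growth factor that mark the epiblast on its way to lineage commitment, were also higher in shPaf1. Otx2 was above the control in both knockdowns, by 0.39 in shPhf5a (adjusted p = 0.00613) and by 1.14 in shPaf1 (9.91e-06). Tcf15, a factor of priming cells, was below it in both, by -2.04 (8.89e-05) and -0.88 (0.0109). Wnt8a and Tcf7l1 did not pass (-0.09 and 0.04, adjusted p = 0.607 and 0.771). The mean of the list minus the control was -0.35, -0.07 and -0.35 in shPhf5a replicates 1, 2 and 3, and 0.49, 0.54 and 0.53 in shPaf1. Of the shPhf5a arrays replicate 2 was thus the nearest both to the control and to shPaf1, and without it the count of members higher in shPaf1 was 23.

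The Nodal pathway signals through activin receptors, and Lefty proteins are both its targets and its inhibitors. Lefty1 read 7.95, 8.95 and 8.05 in shPhf5a and 10.26, 10.27 and 10.14 in shPaf1, against 9.52 to 9.56 in the controls. As for Lefty2, the controls lay between the knockdowns, and the difference was -1.90 (SE 0.21, adjusted p = 0.000147). The ligand Nodal differed the other way. It read 11.24, 11.12 and 11.25 in shPhf5a and 10.61, 10.65 and 10.60 in shPaf1, at 10.52 to 10.59 in the controls (0.58, SE 0.05, adjusted p = 3.17e-05). Furin, a convertase that cuts the Nodal precursor, was higher in shPaf1 (-0.77, SE 0.09, adjusted p = 0.000175). So were the receptor Acvr2b (-0.68, adjusted p = 0.000126) and Foxh1, a transcription factor that works with Smad2 and Smad3 (-0.66, adjusted p = 0.000252). Smad3 itself (0.34) and another convertase gene, Pcsk6, were higher in shPhf5a. Of 17 members of the list 3 were higher in shPhf5a and 7 in shPaf1. Its median was -0.05, and 0.00 after quantile normalization, so that no direction is given for the list.

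FGF ligands activate ERK in these cells, and ERK in turn raises its own phosphatases and inhibitors. Of 17 such genes 10 were higher in shPaf1 and 3 in shPhf5a (median -0.59). Egr1, an early ERK target, read 6.64, 6.66 and 6.56 in shPhf5a and 7.94, 8.17 and 7.91 in shPaf1, against 7.27 to 7.60 in the controls, with no overlap between any groups (-1.39, SE 0.10, adjusted p = 1.08e-05). The phosphatases Dusp5 (-1.37, SE 0.08), Dusp4 (-1.35, SE 0.07) and Dusp6 (-0.94, SE 0.12) were all higher in shPaf1. The ETS factors Etv1 (-1.31), Etv4 (-1.07) and Etv5 (-0.79) and the inhibitors Spry4 (-0.65), Spry2 (-0.59) and Spry1 (-0.55) followed. For Etv4 the shPaf1 arrays, at 8.92, 8.84 and 8.89, did not pass against the control (adjusted p = 0.969), while shPhf5a arrays read 7.55, 8.14 and 7.76. The 3 members higher in shPhf5a were the receptor Fgfr2 (0.80, SE 0.05, adjusted p = 7.79e-06), the ligand Fgf4 (0.47, adjusted p = 0.0019) and Phlda2 (0.31). The feedback genes and the ligand thus differed in opposite directions.

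BMP ligands act through Smad1, Smad5 and Smad9 on Id genes, which encode inhibitors of basic helix-loop-helix factors and which together with LIF sustain self-renewal. Id1 read 9.28, 9.30 and 9.41 in shPhf5a and 8.05, 7.89 and 7.70 in shPaf1, against 8.06 to 8.29 in the controls. The shPhf5a arrays stood alone above the other 6 (1.45, SE 0.09, adjusted p = 7.61e-06). Id3 (1.42, SE 0.08, adjusted p = 3.55e-06), Id2 (0.66, SE 0.08, adjusted p = 0.000227) and Id4 (0.39) were higher in shPhf5a too. The inhibitory Smad6, itself a BMP target, read 8.42, 8.29 and 8.28 in shPhf5a and 6.84, 6.94 and 6.89 in shPaf1, with all controls at 7.46. It lay above the control in one knockdown and below it in the other (1.44, SE 0.05, adjusted p = 5.21e-07). Msx2, a homeobox target of BMP, differed by 1.35 (SE 0.12). Among ligands, Bmp7 was higher in shPhf5a (0.74, adjusted p = 7.91e-05) and Bmp4 higher in shPaf1 (-0.98, SE 0.09, adjusted p = 3.96e-05). Of 16 members 10 were higher in shPhf5a and 3 in shPaf1 (Tcf15, Bmp4 and Smad1), with a median of 0.30. The list mean minus control was 0.42, 0.42 and 0.41 in the shPhf5a arrays and 0.02, 0.05 and 0.02 in the shPaf1 arrays, so that replicate 2 did not stand apart here.

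**Figure D4:**
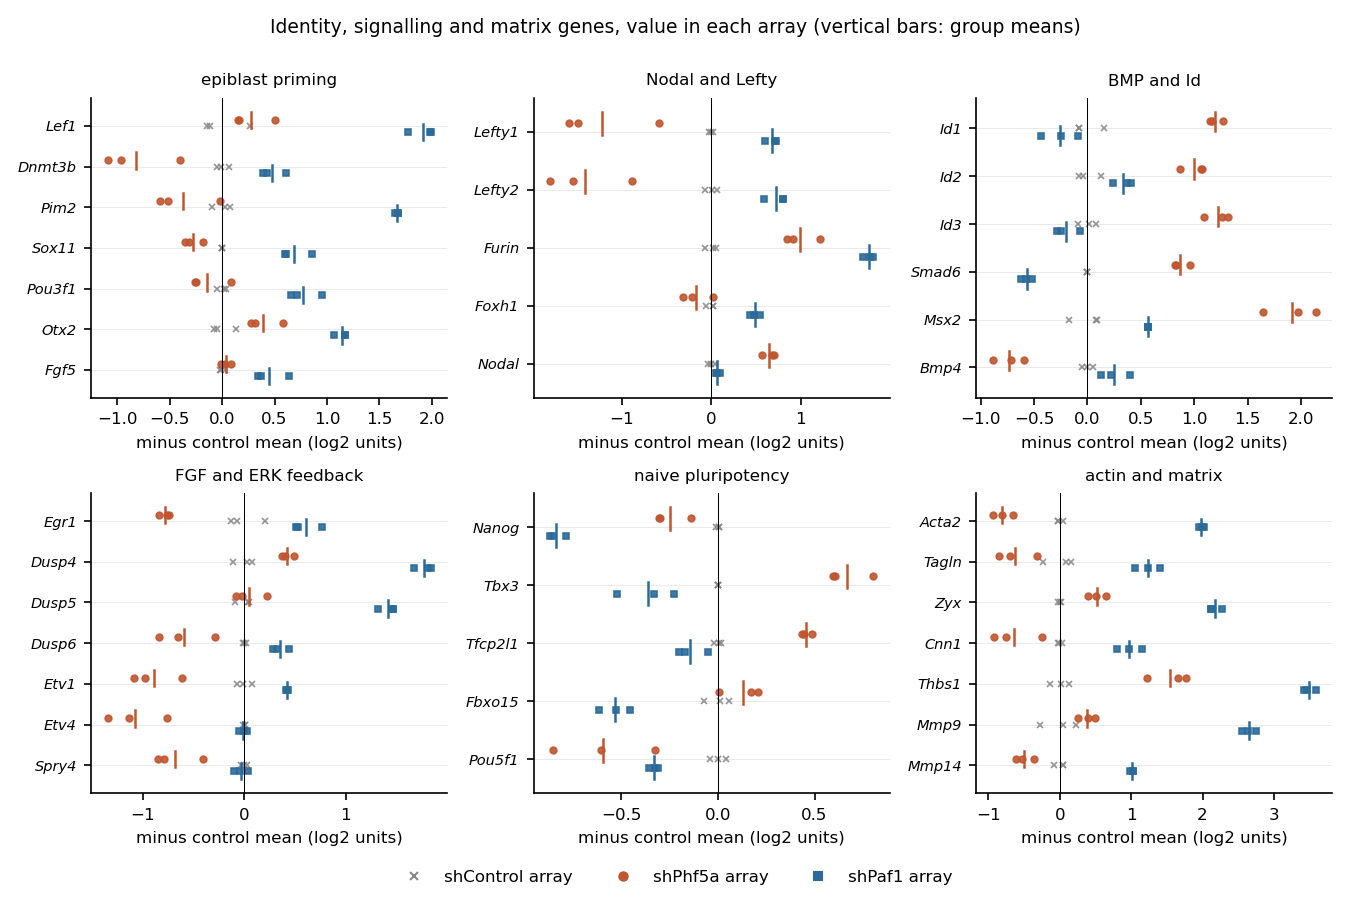
Value in each array minus the control mean (log2 units) for genes of epiblast priming, the Nodal, BMP and FGF pathways, naive pluripotency, and actin and matrix. Circles are shPhf5a arrays, squares shPaf1 arrays and crosses control arrays; Lefty1, Lefty2, Smad6 and Egr1 are among those with the knockdowns on opposite sides of the control, and Pou5f1 is the gene shown whose knockdown arrays overlap.

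Naive pluripotency factors were more often higher in shPhf5a. Of 32 measured genes 11 were higher there and 3 in shPaf1, with a median difference of 0.09. Against the control the list as a whole fell by similar amounts, with a median of -0.33 in shPhf5a and -0.34 in shPaf1. Its mean minus the control was -0.33, -0.14 and -0.26 in shPhf5a replicates 1, 2 and 3, and -0.39, -0.35 and -0.38 in shPaf1. Nanog read 12.20, 12.37 and 12.20 in shPhf5a and 11.72, 11.65 and 11.64 in shPaf1, against 12.49 to 12.51 in the controls. Both knockdowns lay below the control, shPaf1 further (0.59, SE 0.06, adjusted p = 5.43e-05). Tbx3, a T-box factor of naive cells, read 11.29, 11.08 and 11.09 in shPhf5a and 9.97, 10.26 and 10.16 in shPaf1, with the controls at 10.49 between them (1.03, SE 0.08, adjusted p = 2.11e-05). Fbxo15 (0.66), Tfcp2l1 (0.60), Fgf4 (0.47), Prdm14 (0.40), Tet1 (0.32), Zfp42 (0.31) and Klf4 (0.29) were higher in shPhf5a. Sox2 differed little (0.18, SE 0.04, adjusted p = 0.0122). Pou5f1, which encodes Oct4, read 8.76, 9.30 and 9.02 in shPhf5a and 9.30, 9.26 and 9.31 in shPaf1, and replicate 2 fell within the range of the shPaf1 arrays. Its difference did not pass (-0.26, SE 0.11, adjusted p = 0.104), and without replicate 2 it was -0.40 and passed. Lin28b, Tdgf1 and Nr0b1 were the 3 genes higher in shPaf1. That count was 6 without shPhf5a replicate 2, and 1 or 2 without any single one of the other arrays, controls included.

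LIF acts through the receptor subunit Il6st and the factor STAT3. Of 13 LIF and STAT3 genes 6 were higher in shPaf1 (46.2%, against 16.3% of all genes) and 2 in shPhf5a (15.4%, against 12.7%). The list median was -0.23. The 2 members higher in shPhf5a were Tfcp2l1 (0.60, adjusted p = 3.12e-05) and Klf4, both also counted among the naive factors above. Gbx2, a homeobox target of LIF, read 8.69, 9.15 and 8.59 in shPhf5a and 10.11, 10.19 and 10.18 in shPaf1, at 9.97 to 10.02 in the controls (-1.35, SE 0.12, adjusted p = 3.89e-05). The shPaf1 arrays lay close to the controls and the shPhf5a arrays below. Bcl3 (-1.13, adjusted p = 7.6e-05), Pim1 (-0.49, adjusted p = 0.0105) and Il6st (-0.44, adjusted p = 0.00258) were higher in shPaf1. Myc, another target of the pathway, was higher in shPaf1 by 1.84-fold (-0.88, SE 0.14, adjusted p = 0.0011).

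Genes of the trophectoderm, the outer layer of the blastocyst, differed in both directions. Several transcription factors were higher in shPhf5a: Ascl2 by 1.71 (SE 0.14, adjusted p = 2.96e-05), Gata2 by 1.34, Tfap2c by 1.17, Dlx3 by 0.94 and Gata3 by 0.80. Gata2 read 10.37, 9.74 and 10.16 in shPhf5a and 8.78, 8.80 and 8.68 in shPaf1, against 7.17 to 7.40 in the controls, and so stood above the control in all 6 knockdown arrays. Tfap2c read 9.05, 8.99 and 9.02 in shPhf5a and 7.90, 7.84 and 7.83 in shPaf1, on either side of the controls at 8.15 to 8.16. The keratins of simple epithelium, Krt8 (-0.70, SE 0.21, adjusted p = 0.0353) and Krt18 (-0.71, SE 0.19, adjusted p = 0.0168), were higher in shPaf1. Krt7 (-0.40), Lgals3 (-0.39) and the factor Tfap2a (-0.28) were also higher in shPaf1. Cdx2, Eomes, Elf5 and Hand1 did not pass, with differences from -0.09 to 0.09. Of 20 members 6 were higher in shPhf5a and 5 in shPaf1, and the latter count was 3 without shPaf1 replicate 1.

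The primitive endoderm, the layer that faces the blastocyst cavity, was represented in both directions too. The regulator Gata6 (0.76, SE 0.20, adjusted p = 0.0178) and the adaptor Dab2 (0.79, SE 0.13, adjusted p = 0.00119) were higher in shPhf5a. The basement membrane genes Nid1 (-1.07, SE 0.10, adjusted p = 5.5e-05), Col4a2 (-0.67) and Col4a1 (-0.61) were higher in shPaf1, as was the regulator Gata4 (-0.48). The call of Gata6 was lost without shPhf5a replicate 1 or 3 or shPaf1 replicate 1 or 3 (0.57, 0.68, 0.73 and 0.72). Of 21 members 3 were higher in shPhf5a and 6 in shPaf1, and the former count was 1 without shPhf5a replicate 1, shPaf1 replicate 1 or shPaf1 replicate 3. Of 18 neuroectoderm genes 7 were higher in shPaf1, led by Gbx2 (-1.35), the RNA-binding Msi1 (-1.16, adjusted p = 1.78e-05) and the intermediate filament gene Nes (-1.11, adjusted p = 1.21e-06), and 1, Neurod1 (0.74), in shPhf5a.

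Genes of the contractile cytoskeleton were higher in shPaf1. Many of them are driven by serum response factor, Srf, with its cofactor Mrtfa, which is held in the cytoplasm by unpolymerised actin. Of 30 listed genes 18 were higher in shPaf1 and 1, Cnn3 (0.17), in shPhf5a, with a median of -0.29. The count higher in shPhf5a was 0 without shPhf5a replicate 3 or shPaf1 replicate 2, and 2 without shPhf5a replicate 2. Besides Acta2, the largest were the actin-bundling Tagln (-1.85, SE 0.15, adjusted p = 2.4e-05), the focal adhesion protein Zyx (-1.65, SE 0.07, adjusted p = 9.03e-07) and the calponins Cnn1 (-1.62) and Cnn2 (-1.17). Zyx read 8.43, 8.18 and 8.29 in shPhf5a and 9.91, 10.05 and 9.90 in shPaf1, against 7.76 to 7.81 in the controls. Tagln read 6.99, 7.38 and 6.84, and 9.09, 8.94 and 8.75, against 7.46 to 7.85. Zyx was thus above the control in both knockdowns, and Tagln below it in shPhf5a and above it in shPaf1. Srf (-0.68, SE 0.09, adjusted p = 0.000358), Mrtfa (-0.60), filamin Flna (-0.85) and vinculin Vcl (-0.64) were higher in shPaf1 as well. The cytoplasmic actins Actb (-0.17) and Actg1 (-0.04) and the myosin Myh9 (0.05) did not pass.

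The binding motif of Srf, the CArG box, was searched on both strands in the 250 bases before the annotated starts of 16918 genes (RefSeq, GRCm38.p6). It was found in 252 genes (1.49%) and in 11 of the 26 actin cytoskeleton genes with a promoter (42.3%), a list made of known Srf targets and of genes that work with them. Within that list 7 of 17 genes higher in shPaf1 and 4 of 8 uncalled genes held the box, so few genes that no comparison is drawn. Of all genes called higher in shPaf1 40 of 2870 held it (1.39%), and of those higher in shPhf5a 25 of 2147 (1.16%). Of genes called at least 2-fold higher in shPaf1 6 of 154 held it (3.90%: Cnn2, Dusp5, H2ac20, Lef1, Mknk2 and Zfp36), and of those at least 2-fold higher in shPhf5a 0 of 111. Shown are 5 promoter stretches of actin cytoskeleton genes higher in shPaf1, 5′ to 3′ along the gene, with the box in capitals, as examples from the minority of such genes that hold it. They lie at chr10:79988514-79988583 (Cnn2, plus strand), chr8:123894809-123894878 (Acta1, minus strand), chr14:20929148-20929210 (Vcl, plus strand), chr17:46556185-46556274 (Srf, minus strand, with 2 boxes) and chr1:43163962-43164022 (Fhl2, a LIM-domain cofactor, minus strand).
Cnn2: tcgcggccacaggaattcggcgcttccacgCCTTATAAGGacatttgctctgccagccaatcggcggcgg
Acta1: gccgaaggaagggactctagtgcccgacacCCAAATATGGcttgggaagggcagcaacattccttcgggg
Vcl: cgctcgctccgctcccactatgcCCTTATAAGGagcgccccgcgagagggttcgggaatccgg
Srf: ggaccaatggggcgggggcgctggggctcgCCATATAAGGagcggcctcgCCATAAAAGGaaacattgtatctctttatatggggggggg
Fhl2: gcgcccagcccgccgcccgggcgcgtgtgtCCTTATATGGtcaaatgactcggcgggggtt
The differences of these genes were -1.17 for Cnn2, -0.72 for Acta1, -0.64 for Vcl, -0.68 for Srf and -0.69 for Fhl2. A match is a description of the sequence and shows no binding.

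A list of matricellular genes and of genes that respond to YAP, a coactivator regulated by cell shape, leaned to the same side. Of 22 genes 11 were higher in shPaf1 and 2 in shPhf5a (median -0.23). Thbs1, the matricellular thrombospondin, read 8.89, 8.34 and 8.77 in shPhf5a and 10.70, 10.53 and 10.58 in shPaf1, against 6.98 to 7.24 in the controls. It was above the control in both knockdowns and 3.83-fold higher in shPaf1 (-1.94, SE 0.13, adjusted p = 8.54e-06). Nt5e, the ectonucleotidase CD73, read 7.26, 7.58 and 7.25 in shPhf5a and 9.15, 9.13 and 9.11 in shPaf1, against 7.75 to 7.77, with the controls between (-1.76, SE 0.08). Tissue factor, F3, differed by -1.64, Fjx1 by -1.59 and Crim1 by -1.58. The most used YAP readouts differed little: Ccn2 by -0.23 (adjusted p = 0.01), and Ccn1 did not pass (0.30, adjusted p = 0.208). Both were above the control in both knockdowns. Ankrd1, Amotl2, Ajuba, Lats2, Axl and Arhgef17 were not called either. The 2 members higher in shPhf5a were Amotl1 and Ptpn14. The count of members higher in shPhf5a was 4 without shPhf5a replicate 2, and 1 without any single one of the other knockdown arrays.

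Matrix proteases and their inhibitors had 10 of 17 members higher in shPaf1 and 0 in shPhf5a (median -0.32). The membrane protease Mmp14 read 7.35, 7.52 and 7.26 in shPhf5a and 8.90, 8.87 and 8.91 in shPaf1, against 7.80 to 7.92 in the controls (-1.52, SE 0.07, adjusted p = 1.21e-06). The controls again lay between. Inhibitors moved with the proteases, with Timp1 at -1.15, Timp2 at -1.06 and Timp3 at -0.74, and so did the urokinase gene Plau at -0.47. Fibronectin, Fn1 (-0.66, SE 0.04, adjusted p = 7.84e-06), its receptor subunit Itga5 (-0.63) and N-cadherin, Cdh2 (-0.68), were higher in shPaf1, as were the claudins Cldn6 (-0.98) and Cldn4 (-0.80). Fibroblast markers moved with these genes: 4 of 7 were called higher in shPaf1, but their mean was only 5.80 to 5.86 in shPhf5a and 6.01 to 6.08 in shPaf1, at 5.85 to 5.88 in the controls, and 2 of 7 were above the median level of all genes (6.70). The part of other cells in the matrix genes was not tested. In the serpin B9 cluster, neighbouring and closely similar genes whose probes could share signal, 7 of 11 members were higher in shPaf1, with Serpinb9d at -1.66, Serpinb9c at -1.56, Serpinb9f at -1.52 and Serpinb9 at -1.23.

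Genes of the 2-cell stage, which rare cells of a stem cell culture express, were above the control in both knockdowns and higher in shPaf1. Of 30 members 17 were higher in shPaf1 and 1, Zfp809, in shPhf5a (median -0.36). Tdpoz4 read 7.43, 7.21 and 7.70 in shPhf5a and 8.96, 8.88 and 8.91 in shPaf1, against 5.31 to 5.62 in the controls (-1.47, SE 0.12, adjusted p = 2.39e-05). The order was control, shPhf5a, shPaf1, without overlap. Usp17ld (-1.41), Usp17la (-1.26), Tdpoz3 (-1.22) and Usp17lc (-1.16) were the next, and members of these families are so alike that their probes may read each other. Zscan4d, which marks the transient 2-cell-like state, differed by -0.73 (SE 0.13, adjusted p = 0.00219). Without shPhf5a replicate 2, 4 members were higher in shPhf5a and 16 in shPaf1; without shControl replicate 1 or 3 or shPaf1 replicate 3 the former count was 2.

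Targets of p53 were the reverse. Of 31 genes 20 were higher in shPhf5a and 4 in shPaf1, with a median of 0.28. Mdm2, the ubiquitin ligase that p53 induces and that degrades it, read 12.06, 11.78 and 12.09 in shPhf5a and 10.95, 11.00 and 10.86 in shPaf1, where the controls read 10.92 to 10.98. The shPaf1 arrays lay at the control level (1.04, SE 0.08, adjusted p = 2.04e-05). Pmaip1, the proapoptotic Noxa, had the same pattern, at 8.29, 8.35 and 8.42 against 7.32, 7.36 and 7.20, with 7.15 to 7.36 in the controls (1.06, SE 0.07, adjusted p = 7.43e-06). Ddit4l (1.39), the death receptor Fas (0.87), Dcxr (0.87) and Perp (0.71) were above the control in both knockdowns and higher in shPhf5a. Cdkn1a, the cell cycle inhibitor p21, was raised in both by similar amounts, 1.32 in shPhf5a (adjusted p = 6.91e-06) and 1.04 in shPaf1 (1.63e-05), and differed by 0.28 (SE 0.09, adjusted p = 0.0376). The 4 genes higher in shPaf1 were Pltp (-0.53), Xpc (-0.52), Btg2 (-0.35) and Tnfrsf10b (-0.18), and this count was 2 without shPaf1 replicate 2 or 3.

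Genes of DNA replication had 10 of 34 members higher in shPaf1 (29.4%) and 3 in shPhf5a (8.82%), with a median of -0.23. The shares were 16.3% and 12.7% of all genes, and 27.7% and 20.9% of protein-coding genes above the median level spanning 20 to 50 kb. The share higher in shPaf1 was thus close to that of brighter genes, and the counts depended on single arrays. Gins2, a subunit of the replicative helicase, read 9.36, 10.05 and 9.41 in shPhf5a and 10.55, 10.55 and 10.54 in shPaf1, against 10.86 to 11.10 in the controls (-0.94, SE 0.16, adjusted p = 0.00141). Replicate 2 lay between the other shPhf5a arrays and shPaf1, as it did for Rfc2 (-0.58) and Rfc3 (-0.65), where it was nearer to shPaf1. Without that replicate 24 replication genes were higher in shPaf1 and 2 in shPhf5a. Of 30 cell cycle genes 14 were higher in shPaf1 without it, against 7 with it (23.3%). Without any one of the other arrays, 7 to 9 replication genes and 2 to 6 cell cycle genes were higher in shPaf1, and 1 to 6 replication genes were higher in shPhf5a. The list mean of replication genes minus control was -0.79, -0.37 and -0.64 in the shPhf5a arrays and -0.37, -0.40 and -0.37 in shPaf1. Ccne1, the cyclin of the G1 to S transition, differed by -0.58 (adjusted p = 0.0148) and E2f1 by -0.52 (adjusted p = 0.000125).

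Immediate early genes, which growth signals switch on within minutes, had 13 of 27 members higher in shPaf1 and 3 in shPhf5a (median -0.23). Zfp36, which binds and destabilises AU-rich messages, read 8.55, 8.54 and 8.58 in shPhf5a and 9.64, 9.70 and 9.61 in shPaf1, against 8.23 to 8.45 in the controls (-1.09, SE 0.06, adjusted p = 2.97e-06). Fosl2 (-0.99) and Nr4a2 (-0.81) had the same order. Without shPhf5a replicate 2, 5 members were higher in shPhf5a. Of 16 heat shock genes 4 were higher in shPaf1: Hspa1b (-1.95), the near-identical Hspa1a (-1.43), which may share probes with it, Hspa4l (-0.41) and Dnajb1 (-0.32). The constitutive Hspa8 was higher in shPhf5a (0.18, adjusted p = 0.0214), a call lost without shPhf5a replicate 3 or shPaf1 replicate 2 or 3. In antigen presentation the class I genes H2-K1 (-1.57, SE 0.06, adjusted p = 5.21e-07) and B2m (-1.02, SE 0.06, adjusted p = 6.47e-06) were higher in shPaf1, while the peptide transporter Tap1 was higher in shPhf5a (0.85, SE 0.10, adjusted p = 0.000217). Tap1 read 9.12, 8.71 and 9.02 in shPhf5a, 8.10 in each shPaf1 array and 6.91 to 7.13 in the controls.

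Cholesterol synthesis genes, which SREBP2 controls, had 12 of 19 members higher in shPaf1 and 0 in shPhf5a (median -0.33). Insig1, the sterol sensor that retains SREBP, read 8.77, 9.42 and 8.89 in shPhf5a and 10.44, 10.37 and 10.37 in shPaf1, against 10.11 to 10.16 in the controls (-1.37, SE 0.14, adjusted p = 8.01e-05). Only the shPhf5a arrays of Insig1 lay below the control. Cyp51 (-0.90), Lss (-0.59), Sc5d (-0.57), Mvk (-0.43) and Srebf2 itself (-0.41) were on the same side. Of 25 glycolysis genes 13 were higher in shPaf1 and 4 in shPhf5a (median -0.20), led by Pdk1 (-1.09, SE 0.08, adjusted p = 1.91e-05), which keeps pyruvate out of mitochondria, and Pfkl (-1.01), the liver form of phosphofructokinase. The count of 4 was 2 without shPhf5a replicate 3 or shPaf1 replicate 1 or 3. Of 22 lysosomal genes 15 were higher in shPaf1 and 3 in shPhf5a (median -0.35). The hydrolase Hexa (-1.04, SE 0.09, adjusted p = 4.19e-05), the cholesterol carrier Npc2 (-0.98), the sialidase Neu1 (-0.84) and the protease Ctsl (-0.79) led them, and Man2b1 (0.46), Ctsd (0.31) and Gaa (0.27) were the 3 genes higher in shPhf5a. The mean of macrophage and blood markers differed in the same direction as the lysosomal and matrix protease genes, but few of these markers were called. Their mean over 6 genes was 6.10 to 6.27 in shPhf5a, 6.39 to 6.52 in shPaf1 and 6.27 to 6.43 in the controls, without overlap between the knockdowns, and 2 of 6 were called higher in shPaf1. These were Cd68 (-0.86, adjusted p = 0.000145), itself a lysosomal membrane protein and the 1 marker above the median level of all genes, and Csf1r (-0.40, adjusted p = 0.00824). Ptprc, the pan-leukocyte marker CD45, did not pass (-0.01, adjusted p = 0.87) and read 4.98 to 5.02 over the 6 knockdown arrays, near the bottom of the scale. The part of such cells in these genes was not tested.

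Genes of the splicing and elongation machinery were called in both directions. In the SF3 and U2 group 7 of 24 members were higher in shPhf5a (29.2%) and 5 in shPaf1 (20.8%), against 12.7% and 16.3% of all genes. Brighter genes were called more often: for protein-coding genes above the median level spanning 20 to 50 kb the shares were 20.9% and 27.7%. The group median was -0.02, and 0.01 with arrays centred on their medians, so no direction is given for the group. Sf3b3 and Sf3b1, large partners of Phf5a within SF3b, were higher where Phf5a was lowest. Sf3b3 read 12.33, 12.44 and 12.38 in shPhf5a and 11.64, 11.56 and 11.64 in shPaf1, with all controls at 11.89 (0.77, SE 0.05, adjusted p = 5.86e-06). Sf3b1 differed by 0.53 (SE 0.04, adjusted p = 2.67e-05), Rbm17 by 0.63 and the helicase Ddx46 by 0.47. Phf5a itself, Sf3b2 (-0.41), Ddx42 (-0.39), Sf3a1 (-0.29) and Sf1 (-0.17) were higher in shPaf1, a count of 5 that was 3 without shPhf5a replicate 3 or shPaf1 replicate 2 or 3. Of 29 SR and hnRNP genes 10 were higher in shPhf5a, led by Srsf5 and Rbm39 (both 0.58).

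Elongation factors were divided, with 7 of 28 higher in shPhf5a (25.0%) and 10 in shPaf1 (35.7%). The shares were 12.7% and 16.3% of all genes, and 20.9% and 27.7% of the brighter genes given above. Supt5, a subunit of the pausing and elongation factor DSIF, read 10.52, 10.65 and 10.48 in shPhf5a and 11.13, 11.14 and 11.17 in shPaf1, against 10.41 to 10.48 in the controls (-0.60, SE 0.05, adjusted p = 3.75e-05). The shPaf1 arrays alone stood clear of the control. Eaf1 (-0.86), Nelfb (-0.47), Supt6 (-0.40), Hexim1 (-0.38) and Cdk9 (-0.35) were higher in shPaf1. Larp7 (0.48), Aff4 (0.30) and the H3K36 methyltransferase Setd2 (0.26) were higher in shPhf5a, a count of 7 that was 4 without shPaf1 replicate 1 or 3. Of 20 genes that write or remove H2B ubiquitin and H3K4 or H3K79 methylation, marks that depend on the Paf1 complex, 10 were higher in shPaf1 and 3 in shPhf5a (median -0.23), or 1 in shPhf5a without shPaf1 replicate 3. Among them were Men1 (-0.71, SE 0.07, adjusted p = 6.78e-05), Kmt2d (-0.58), Dot1l (-0.54) and the H2B ubiquitin ligase Rnf40 (-0.30). Dot1l was above the control in both knockdowns, by 0.55 in shPhf5a (adjusted p = 0.000113) and by 1.09 in shPaf1 (2.13e-06).

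Small nucleolar RNAs, which guide modification of ribosomal and spliceosomal RNA and are mostly cut from introns of host genes, were higher in shPhf5a. Of 78 genes 41 were higher there and 2 in shPaf1, with a median of 0.37. The count of 2 was 1 without shPhf5a replicate 1 or 3 or shPaf1 replicate 1 or 2. Snord16a read 12.67, 12.58 and 12.69 in shPhf5a and 10.37, 10.57 and 10.60 in shPaf1, against 11.32 to 11.40 in the controls, and so differed in both directions from the control (2.13, SE 0.07, adjusted p = 4.09e-07). Snord1b differed by 2.30 (SE 0.09) and Snord22 by 1.69 (SE 0.06). Scarna6, which guides modification in Cajal bodies, was below the control in both knockdowns, at 11.03, 11.05 and 11.03 in shPhf5a and 8.69, 9.02 and 9.59 in shPaf1, where the controls read 11.75 to 12.02 (1.94, SE 0.18, adjusted p = 5.07e-05). Snord118, the U8 RNA, which has a gene of its own, read 9.45, 9.89 and 9.62 in shPhf5a, at the control level of 9.36 to 9.72, and 7.41, 7.82 and 7.86 in shPaf1 (1.96, SE 0.15). Of 15 noncoding host genes 9 were higher in shPhf5a and 1 in shPaf1 (median 0.35), led by Snhg11 (1.68), Snhg1 (1.26, SE 0.06, adjusted p = 1.24e-06) and Snhg6 (1.03). The single host higher in shPaf1, Snhg18 (-0.31), was not called without shPaf1 replicate 3, and 2 were higher there without shPhf5a replicate 2.

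By the RefSeq gene table, 63 of these small nucleolar RNA genes lay within the span of a measured gene, 49 such hosts in all. Of the 49 hosts 24 were higher in shPhf5a and 5 in shPaf1, with a median of 0.21, and the median of the 63 small RNAs was 0.38. Of the 34 small RNAs higher in shPhf5a, 20 had a host called in the same direction, 13 an uncalled host and 1 a host higher in shPaf1. Snord22 within Snhg1 (1.69 and 1.26) and Snord72 within Rpl37 (1.30 and 1.18) differed about as much as their hosts. Snord16a within Rpl4 (2.13 and 0.16), Scarna6 within Atg16l1 (1.94 and -0.20) and Snora15 within Cct6a (1.34 and 0.05) did not. Snora31 within Tpt1 was the reverse, with 0.19 for the small RNA and 1.82 for the host. Over all 63, the small RNA had the larger absolute difference in 37. A probe set for such a gene can also read unspliced or partly degraded host RNA, which cannot be told apart here from the mature small RNA.

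**Figure D5:**
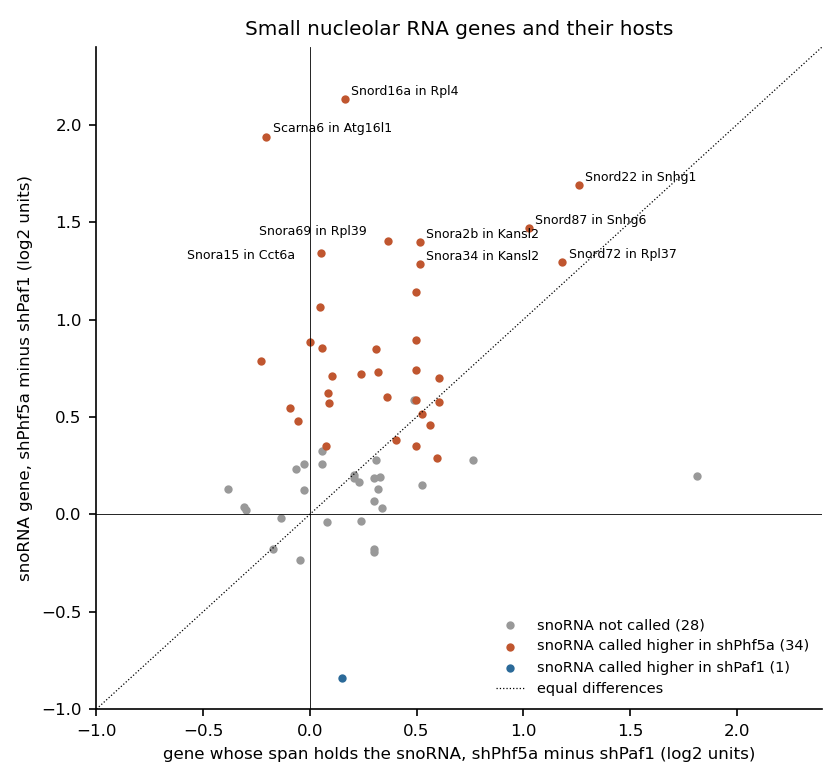
Difference of 63 small nucleolar RNA genes (vertical, shPhf5a minus shPaf1, log2 units) against that of the gene whose span holds them (horizontal, same units). Of the points 34 are small RNAs called higher in shPhf5a and 1 is called higher in shPaf1; Snord16a, Scarna6 and Snora15 lie far above the line of equal differences.

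Genes for cytoplasmic ribosomal proteins had 30 of 67 members higher in shPhf5a and 2 in shPaf1 (median 0.21). Rpl37a read 8.42, 8.72 and 8.48 in shPhf5a and 7.57, 7.65 and 7.47 in shPaf1, against 9.14 to 9.31 in the controls (0.98, SE 0.09, adjusted p = 3.47e-05). It was below the control in both knockdowns, further in shPaf1. Rpl37 differed by 1.18 (SE 0.12, adjusted p = 8.34e-05), Rps15 by 0.68 and Rpl3 by 0.60. Rplp0 did not pass (-0.03, adjusted p = 0.843). Such genes have many processed pseudogenes that probes could share. The paralogue Rpl10l was one of the 2 genes higher in shPaf1 (-0.63, adjusted p = 3.91e-05).

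All 10 measured genes of the mitochondrial genome were higher in shPhf5a, by 0.21 (COX1) to 0.36 (COX3) apart from ND6. After quantile normalization 5 of the 10 were called, so the count depends on the scaling of the most abundant transcripts. ND6, the gene that is transcribed from the opposite strand to the other protein-coding genes, differed far more. It read 10.04 and 10.34 in shPhf5a replicates 2 and 3, marginally less in replicate 1, and 8.81, 8.41 and 8.35 in shPaf1, against 10.30 to 10.48 in the controls (1.60, SE 0.13, adjusted p = 2.11e-05). Among 74 nuclear genes of the respiratory chain 6 were higher in shPhf5a (8.11%) and 11 in shPaf1 (14.9%). These shares were below those of all genes, 12.7% and 16.3%. Without shPhf5a replicate 2 the counts were 8 and 23, without shPhf5a replicate 3 or shPaf1 replicate 1 the latter was 7 or 6, and without shPaf1 replicate 2 or 3 the former was 3. The paraspeckle scaffold Neat1, a nuclear noncoding RNA, read 10.42, 9.91 and 10.71 in shPhf5a and 9.07, 9.07 and 9.19 in shPaf1, against 7.61 to 7.79 in the controls (1.24, SE 0.16, adjusted p = 0.000399). Its neighbour Malat1 differed by 0.42 (SE 0.10, adjusted p = 0.0134). In the paraspeckle list 6 of 10 members were higher in shPhf5a, and 3 without shPaf1 replicate 2.

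Of 483 microRNA genes 47 were higher in shPhf5a and 17 in shPaf1, shares below those of all genes. A few of them differed strongly. Probe sets of this kind can read the precursor or its host transcript, so the values are not taken as levels of the mature form. Mir290a, of the cluster that stem cells express most, read 9.62, 10.27 and 10.21 in shPhf5a and 8.18, 8.52 and 8.05 in shPaf1, with 8.93 to 9.10 in the controls between (1.78, SE 0.17, adjusted p = 5.91e-05). Mir200b, of the family that represses the Zeb factors of epithelial to mesenchymal transition, read 7.58, 7.19 and 7.77 in shPhf5a and 5.88, 5.90 and 6.14 in shPaf1, at 6.03 to 6.13 in the controls (1.54, SE 0.13, adjusted p = 2.95e-05). Its neighbour Mir200a differed by 0.58 (SE 0.08, adjusted p = 0.000685). Mature sequences (RefSeq, GRCm38.p6) are given for the 3p arms only. Capitals mark the seed, bases 2 to 8. The 3p seeds of miR-200a and miR-200b differ, so that they fall into different seed groups. Mir200a and Mir200b lie on the minus strand at chr4:156054911-156054932 and chr4:156055685-156055706, and Mir290a on the plus strand at chr7:3218674-3218697. The count of 47 was 31 without shPaf1 replicate 1, and that of 17 was 11 without shControl replicate 1 or shPaf1 replicate 3 and 9 without shPaf1 replicate 2.
mmu-miR-290a-3p: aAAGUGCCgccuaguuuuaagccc
mmu-miR-200b-3p: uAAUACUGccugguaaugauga
mmu-miR-200a-3p: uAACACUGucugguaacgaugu

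By class of gene, 12.9% of 18961 protein-coding genes were higher in shPhf5a and 18.4% higher in shPaf1, while long noncoding genes leaned the other way. Among 1926 long noncoding RNA genes 9.81% were higher in shPhf5a and 4.36% in shPaf1. The excess on the shPaf1 side over all genes depended on the scaling. Quantile normalization gave 3257 genes higher in shPhf5a and 3321 in shPaf1, and centring arrays on their medians gave 3153 and 3225. Classes of gene and of gene length were not recounted under these scalings. Among protein-coding genes above the median level more were higher in shPaf1 in each class of gene length, and the size of that excess varied between classes, which was not tested. Of 1323 genes spanning 5 to 10 kb, 14.5% were higher in shPhf5a and 31.7% in shPaf1, with a median difference of -0.09. Of 1254 genes spanning over 100 kb, the shares were 23.5% and 26.7%, with a median of -0.01. Against the shared controls, the medians of the 5 to 10 kb genes were -0.21 in shPhf5a and -0.10 in shPaf1, and those of the longest genes 0.11 and 0.13.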

How the data were processed

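Total RNA of the 9 samples was hybridised to Affymetrix whole-transcript arrays after cDNA synthesis and labelling with Ambion and Affymetrix kits, per the labels' protocols. The authors deposited 1 log2 value per probe set and array, made from scanned arrays; the software and whether or how the values were normalised are not stated in any source used here. That base is a reading of the values themselves, which ran from 4.35 to 13.7. If the log base were another, folds would differ and calls would not. Background hybridisation compresses dim genes, and values of different probes cannot be compared. Scan dates were not used here, so no batch was tested, and the number of arrays limits the precision.

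The platform annotation paired 23521 of 33793 probe sets with 1 symbol, which were used, and 1814 with several; 8458 were unlisted or had none. By gene ID 23328 matched the RefSeq table (GRCm38.p6). Each of 22180 genes was represented by its brightest probe set, judged by the mean of all 9 arrays. limma 3.58.1 (R 4.3.3) was fitted with 1 mean per group over 9 arrays, controls entering the variance alone, and Benjamini-Hochberg adjustment over all genes at 0.05. On simulated data of 22180 genes for this comparison, differences of 0.5, 1 and 2 were called in 79.1%, 100% and 100% of changed genes, and 8 of 21980 unchanged genes were called. The simulation changed only 66 or 67 genes per size, with independent normal noise and the same spread in all groups. In the data 6430 genes were called and the shPhf5a arrays were more scattered, so these rates cannot be carried over to the calls here.

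Members and lists were chosen with earlier results of these data known, and lists are described without a test. Named were both targets, Pou5f1, Sox2, Nanog, the Paf1 complex, the 12 largest called differences each way among non-overlapping genes whose higher mean exceeded the median (6.70), without unnamed loci, small RNAs and receptor families, up to 5 called members per list, and 6 genes with opposite calls against control. Other members, the hosts of small RNAs and AU040972 were named after their values were seen. Of 7 motifs counted, chosen after 14 were searched in these promoters, 1 is reported. Alternatives were other scalings, probe set rules, variance models, the knockdown arrays alone, a replicate block and leaving out each array.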

Additional observations from a re-analysis of the deposited data

How the results depend on the processing

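Of 4239 pairs of a named gene and an alternative, 4141 kept direction and side of the threshold, 96 lost the call, 2 gained it (both Pou5f1) and 0 reversed. Nearly all named genes were called to begin with, and many were chosen for large differences. That their calls were mostly kept was thus largely set by the choice, and it does not describe the other called genes. Leaving out 1 array at a time gave 2300 to 3029 genes higher in shPhf5a and 2838 to 4255 higher in shPaf1, and at least 2-fold 143 to 184 and 179 to 268. With every probe set tested on its own, 358 and 316 were at least 2-fold higher in shPhf5a and in shPaf1; more features were tested. Quantile normalization gave 3257 and 3321 calls and moved the share higher in shPhf5a from 43.6% to 49.5%; its median difference was -0.001. The sign of the list median differed under quantile normalization or centring for the Nodal, primitive endoderm, SF3, Polycomb, ATF4, heat shock, Hox and chaperonin lists. With only the 100 bases before the start searched, 0.632% of all promoters and 30.8% of the actin list held the CArG box. In that window 19 of 2870 genes higher in shPaf1 held it (0.662%), and 10 of 2147 higher in shPhf5a (0.466%). At least 2-fold, these were 6 of 154 (3.90%) and 0 of 111.

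With the replicate number as a block 2704 genes were higher in shPhf5a and 3551 in shPaf1. Deviations of same-numbered arrays correlated from -0.058 to 0.106, so the numbers were not taken to pair the samples. The planned description by exon count was not run. Dim genes, near background, limit what could be called.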
